A study of Mus musculus with 5 samples.

Results

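Fibrinogen-expressing proximal tubule cells were studied in mouse kidney after ureteric obstruction. They were chosen from droplet single-cell counts as cells with at least 5 unique molecular identifiers (UMIs, each standing for 1 captured transcript) of Fgg, Fga and Fgb summed, the genes of the 3 fibrinogen chains. They also had to carry at least 1 UMI of the proximal tubule genes Slc34a1, Lrp2 and Miox summed, none of the leukocyte gene Ptprc, at most 1 of the endothelial gene Egfl7, and at most 2 each of Slc12a1 (thick ascending limb) and Aqp2 (collecting duct). The rule found 264 of 13823 cells that had at least 200 detected genes and at most 50% mitochondrial UMIs. Cells that met every other term and had 0 fibrinogen UMIs served as the reference, 4804 in all, and 804 cells with 1 to 4 fibrinogen UMIs lay between these classes. Cells of the 3 classes together are called eligible cells.

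The kidneys came from C57/BL6 mice aged 8 weeks, whose sex and genotype the labels do not give. Each library pooled 3 mice, and each condition has 1 library: sham surgery, taken as day 0, 2 days of unilateral ureteric obstruction (UUO), 7 days of UUO, and UUO that was reversed and followed for 7 days, to experimental day 14. Tissue digestion took place on ice, and a DAPI gate kept live cells for 10x 3' V2 capture. The 4 libraries hold 2739 to 5938 deposited cells and 18649637 to 30462683 UMIs, and the median depth of kept cells ran from 2709 UMIs in sham to 6590 on day 2. With 1 library per condition no time point was tested against another. The classes were compared within the day 2, day 7 and reversed libraries, which act as the replicates. The labels do not say that a library is a biological replicate of this comparison, and each is a pool, so its p-values measure the spread between 3 conditions.

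Fibrinogen is a secreted glycoprotein built of paired alpha, beta and gamma chains, encoded by Fga, Fgb and Fgg. Hepatocytes make nearly all of the plasma protein and raise it in the acute phase response, when interleukin-6 family cytokines act through STAT3 together with C/EBP and HNF1 factors. Thrombin turns fibrinogen into fibrin, and fibrinogen also binds integrins and other cell surface proteins. Proximal tubule cells reabsorb most of the filtered solute, and after injury they lose transporters and gain repair genes.

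The 3 genes lie together on chromosome 3, their start sites within 42.14 kb in the GRCm38.p6 build. Their promoters are shown because the rule counts the 3 chains together. Each sequence runs 5′ to 3′ on the gene's strand from 250 bases before to 50 bases after the RefSeq start site, at chr3:83007474-83007773 (plus strand) for Fgg, chr3:83025903-83026202 (plus) for Fga and chr3:83049814-83050113 (minus) for Fgb. Capitals mark the letters of 4 searched motifs.
Fgg: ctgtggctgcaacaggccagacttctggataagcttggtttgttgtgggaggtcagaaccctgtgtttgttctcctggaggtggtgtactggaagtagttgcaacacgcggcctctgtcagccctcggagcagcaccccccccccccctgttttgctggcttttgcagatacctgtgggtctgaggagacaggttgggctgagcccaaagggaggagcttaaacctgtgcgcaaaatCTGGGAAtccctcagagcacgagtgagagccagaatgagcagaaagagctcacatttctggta
Fga: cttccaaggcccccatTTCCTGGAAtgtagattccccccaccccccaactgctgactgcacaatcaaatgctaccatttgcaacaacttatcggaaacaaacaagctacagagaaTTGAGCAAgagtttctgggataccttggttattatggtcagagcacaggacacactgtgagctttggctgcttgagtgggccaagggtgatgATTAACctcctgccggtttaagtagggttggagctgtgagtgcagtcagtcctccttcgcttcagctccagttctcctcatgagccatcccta
Fgb: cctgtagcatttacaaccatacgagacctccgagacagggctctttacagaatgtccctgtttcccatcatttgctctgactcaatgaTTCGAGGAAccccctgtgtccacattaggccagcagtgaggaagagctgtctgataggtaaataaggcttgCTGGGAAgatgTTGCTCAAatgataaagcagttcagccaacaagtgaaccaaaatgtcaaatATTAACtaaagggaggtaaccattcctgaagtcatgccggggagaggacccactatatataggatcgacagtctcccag
The motifs were searched on both strands in 32851 RefSeq promoters of this length. The STAT letters TTCNNNGAA were found in 8.30% of them, the CTGGGAA letters, known from acute-phase genes, in 11.1%, the C/EBP-type letters TTGCNNAA in 10.8%, and the HNF1-type letters GTTAAT in 7.10%. The Fgg window held only CTGGGAA, 13 bases before the start site. The Fga window held the STAT letters at 234, the C/EBP-type letters at 135 and the HNF1-type letters at 43 bases upstream. All 4 motifs were in the Fgb window, at 162 (STAT), 91 (CTGGGAA), 80 (C/EBP-type) and 29 (HNF1-type) bases upstream. No 2 matches overlapped. A match describes the letters only.

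Fibrinogen-expressing cells were most frequent on day 2 of obstruction. There were 212 among 753 eligible cells on day 2, a share of 28.2% (95% exact binomial interval 25.0 to 31.5%). On day 7 there were 38 of 330, or 11.5% (8.28 to 15.5%), and in the reversed library 12 of 1431, or 0.839% (0.434 to 1.46%). The sham library had 2 of 3358, or 0.0596% (0.00721 to 0.215%). The intervals cover counting error only, and a condition, its pool of mice and its library cannot be told apart. Of all kept cells in a library the members made up 9.61% on day 2 and 0.855%, 0.371% and 0.0509% on day 7, in the reversed and in the sham library. The rule counts UMIs and so depends on depth. When each cell was thinned to 1000 UMIs before the rule was applied, the shares were 2.48% on day 2, 0.697% on day 7 and 0 in both other libraries. These shares rest on 15 and 2 cells, with counting intervals of 1.39 to 4.06% and 0.0845 to 2.49%.

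Fibrinogen was detected in many more eligible cells than the members. Among eligible cells 66.1% on day 2, 36.7% on day 7, 15.6% in the reversed and 6.73% in the sham library had at least 1 fibrinogen UMI. Free RNA in droplets gives UMIs in cells that do not transcribe a gene, and leukocytes were used to gauge that background. Leukocytes without proximal tubule UMIs leave out those that carry tubule RNA and may understate it, so both kinds are given. In Ptprc cells without proximal tubule UMIs the share with any fibrinogen UMI was 14.8% on day 2, 5.41% on day 7, 0.917% in the reversed and 0 of 18 cells in the sham library. In Ptprc cells with proximal tubule UMIs it was higher, at 22.8%, 11.1% and 5.23%, and 0 of 84 cells in sham. Median depth was 7786, 5837, 3260.5 and 2210 UMIs in the Ptprc cells without proximal tubule UMIs. It was 10674.5, 7695.5, 6631 and 3889.5 UMIs in those with them, against 4902, 5907.5, 4959 and 2651.5 UMIs for eligible cells. Each cell was also thinned to 1000 UMIs, for which no cell was too shallow. The share was then 35.1% of eligible cells on day 2, 14.2% on day 7, 3.49% in the reversed and 2.47% in the sham library. The counting intervals of the last 2, 2.60 to 4.58% and 1.97 to 3.05%, overlap. In Ptprc cells without proximal tubule UMIs the share was 2.46%, 0.972%, 0 and 0, and in those with them 6.29%, 3.21%, 0.683% and 0. Endothelial cells with Egfl7 stood at 8.23% on day 2 and 4.63% on day 7 without thinning, well below the eligible cells.

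Eligible cells held 97.4% of all fibrinogen UMIs of the sham library and 75.8% of those of the reversed library. They held 83.8% in the day 2 and 50.6% in the day 7 library. Cells with at least 5 fibrinogen UMIs numbered 2 in sham, 244 on day 2, 76 on day 7 and 16 in the reversed library before the other terms applied. On day 7, where only 38 of the 76 became members, 21 lacked a proximal tubule UMI, 18 had Ptprc, 10 had more than 2 Slc12a1 UMIs and 7 had more than 1 Egfl7 UMI, some failing several terms. Thick ascending limb cells, which the Slc12a1 term removes, carried at least 5 fibrinogen UMIs in 9 of 103 cells on day 7, or 8.74% (4.07 to 15.9%), and in 6 of 205 on day 2, or 2.93%. Thinned to 1000 UMIs, any fibrinogen UMI was found in 2.91% of these limb cells on day 7, on a count of 3 cells. This compares with 0.972% of Ptprc cells without and 3.21% of Ptprc cells with proximal tubule UMIs. Libraries shared 16 to 39 cell barcodes in each pair, and no barcode was a member in both libraries of a pair.

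**Figure D1:**
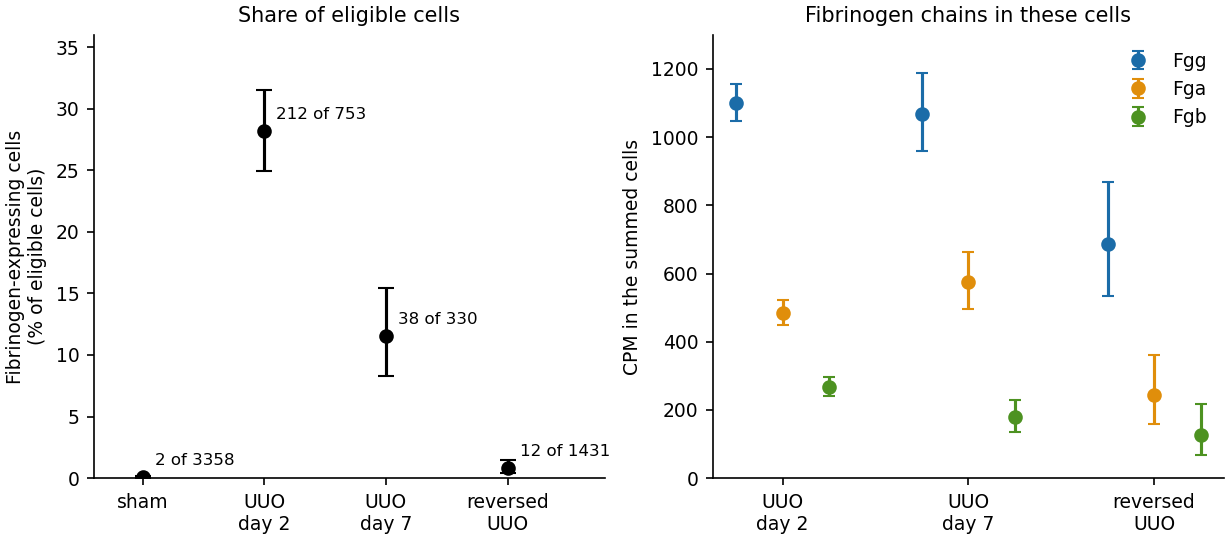
Left, share of eligible cells (%) with at least 5 fibrinogen UMIs in each of the 4 libraries, with 95% exact binomial intervals; the share was 28.2% on day 2 and 11.5% on day 7. Right, CPM (counts scaled to 1000000 UMIs per sum) of Fgg, Fga and Fgb in the summed members of the 3 libraries with at least 10 members, with exact Poisson intervals. Fgg lies above Fga and Fga above Fgb in each library, with overlapping intervals of Fga and Fgb after reversal.

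In the day 2, day 7 and reversed libraries members expressed the chains in the order Fgg above Fga above Fgb, on the scale of CPM, the UMIs of all members of a library summed and scaled to 1000000. Since 3' capture counts transcript ends, these levels do not scale with transcript length, though capture can differ between transcripts. Fgg, which encodes the gamma chain, stood at 1101 CPM on day 2 (exact Poisson interval 1048 to 1156), 1069 CPM on day 7 (960 to 1187) and 686 CPM after reversal (535 to 867). Fga, for the alpha chain, stood at 485, 574 and 245 CPM, and Fgb, for the beta chain, at 268, 178 and 127 CPM. After reversal Fga and Fgb rest on 25 and 13 UMIs, and their intervals, 159 to 362 and 67.9 to 218 CPM, overlap. Fgg therefore gave 59.4%, 58.7% and 64.8% of the fibrinogen UMIs of members, and Fgb 14.4%, 9.78% and 12.0%. The rule selects on the sum of the chains, so the height of these levels is no finding. The split between chains was not used by the rule.

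The rule, which asks for 5 UMIs of the chains in sum, favours cells with several chains, so the following counts are a description. All 3 were detected in 122 of 212 members on day 2, 18 of 38 on day 7 and 7 of 12 after reversal, and a lone chain was seen in 6, 1 and 2 members. Fgg was present in 209 of 212, 38 of 38 and 11 of 12 members. The median member held 9 fibrinogen UMIs on day 2, 13 on day 7 and 7 after reversal, with highest values of 89, 56 and 22. The 2 sham members held 5 and 6, as 3 Fgg, 3 Fga and 5 Fgb UMIs in sum, and sham was left out of the tests for lack of cells.

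The members carried proximal tubule markers that the rule did not use. The summed level of 13 of them, all detected in each of these 3 libraries, was 8154 CPM on day 2, 14917 on day 7 and 9071 after reversal in members, against 3079, 7206 and 12894 CPM in the reference, so that members were below the reference after reversal. Slc5a12, a lactate transporter of the early proximal tubule, was detected in 105 of 212 members on day 2, 16 of 38 on day 7 and 6 of 12 after reversal. Slc7a13, a transporter of the late S3 segment, was detected in 5, 6 and 2 members, or 2.36% on day 2 and 15.8% on day 7. In cells with at least 5 UMIs of the 3 proximal tubule genes, Slc5a12 was detected in 98 of 179 members and 56 of 112 reference cells on day 2, in 16 of 32 (interval 31.9 to 68.1%) and 14 of 72 (19.4%, 11.1 to 30.5%) on day 7, and in 5 of 10 and 393 of 864 after reversal. Slc7a13 was detected in 2.23% and 1.79% on day 2, in 12.5% (3.51 to 29.0%) and 40.3% (28.9 to 52.5%) on day 7, and in 2 of 10 and 14.4% after reversal. Segment lists did not always go with these single genes. The sum of 7 S1 markers, Slc5a12 among them, was 1636, 1085 and 1726 CPM in these members and 2521, 782 and 3017 CPM in their reference, that of 5 S2 markers 584, 1052 and 709 against 498, 945 and 932 CPM, and that of 8 S3 markers 574, 1018 and 589 against 415, 1995 and 1137 CPM. The medians of depth differ between these classes, as given below, and no test was made. Fibrinogen is best known from liver, so 12 hepatocyte markers were checked. Ahsg, Plg, F2, Vtn and Cps1 were at 0 UMIs in members of all 3 libraries, and the sum was 39.1, 21.5 and 118 CPM in members against 26.2, 30.8 and 32.2 CPM in the reference. Albumin (Alb) gave 1, 0 and 1 UMI in members.

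A smaller share of reference cells than of members was rich in proximal tubule UMIs. Only 43.9% of the reference on day 2, 34.4% on day 7 and 71.5% after reversal had at least 5 UMIs of the 3 proximal tubule genes of the rule, against 84.4%, 84.2% and 83.3% of members. Fibroblast and mural markers (5 genes) summed to 87.6 CPM on day 2, 3258 on day 7 and 571 after reversal in the reference, and to 2.75, 58.4 and 9.81 CPM in members. Macrophage markers (8 genes, all detected) summed to 3141, 9863 and 2579 CPM in the reference and to 1285, 5674 and 2706 CPM in members, and the 4 erythroid markers to 4310 against 144 CPM on day 7 and 1618 against 58.8 CPM after reversal. Markers of intercalated cells, the acid-base cells of the collecting duct (5 genes), summed to 1815, 725 and 777 CPM in the reference and to 163, 396 and 58.8 CPM in members. Thick ascending limb markers (4 genes) summed to 1043, 542 and 510 CPM in the reference and to 266, 488 and 2295 CPM in members. In the 12 reversed members most of this sum was Umod, at 2167 CPM, and it was 134 CPM in the 10 with at least 5 proximal tubule UMIs. A second comparison asked for at least 5 proximal tubule UMIs in both classes, and was set beside the first after these values were seen. It kept 179, 32 and 10 members and 112, 72 and 864 reference cells, and in its reference the fibroblast sum was 10.3, 83.9 and 217 CPM, the intercalated cell sum 51.6, 40.8 and 168 CPM and the proximal tubule sum 9314, 24140 and 19150 CPM, above the 8385, 17269 and 11063 CPM of its members. The macrophage sum was 1262, 6007 and 3277 CPM in these members and 1503, 5184 and 1690 CPM in their reference. The cells so chosen are called tubule-rich below, and the main results are given in both comparisons. Where members are not called tubule-rich, their levels are of all members by the rule as given.

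Depth also differed. Members had median depths of 5648, 7880 and 5848.5 UMIs against 4698, 6126 and 4652 UMIs in the reference, and tubule-rich members 6111, 7880 and 5848.5 against 3562.5, 4767 and 4299 UMIs. By the rule as given the median mitochondrial share of UMIs was 22.2%, 19.2% and 19.4% in members and 18.0%, 10.0% and 26.6% in the reference. In tubule-rich cells it was lower in members in each library, at 22.2% in members and 26.3% in the reference on day 2, 20.1% and 21.9% on day 7, and 27.8% and 31.6% after reversal.

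In the comparison by the rule as given, 160 of 9755 genes were higher in members (1.64%) and 372 were lower (3.81%), by edgeR's quasi-likelihood test with a library term and Benjamini-Hochberg adjusted p at most 0.05. Tubule-rich cells gave 5 higher genes of 4829 tested (0.104%) and 0 lower, with 369 genes at an unadjusted p under 0.05, and DESeq2 called 7 higher and 0 lower. Of the 532 genes called by the rule as given, 218 could be tested in tubule-rich cells, 180 kept their sign and 3 were called again. The other 314 called genes had too few UMIs there to be tested. With reference cells drawn towards the members' depth, tubule-rich cells gave 4 higher and 0 lower genes, but on day 2 all 112 reference cells were kept and the medians stayed at 6111 and 3562.5 UMIs. Without the day 7 library, tubule-rich cells gave 27 higher and 13 lower genes, and without the reversed library the rule as given gave 714 and 724, without day 2 37 and 139, and without day 7 66 and 280.

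The sulphate transporter gene Slc13a1 was higher in members in both comparisons. Its protein lies on the luminal side of proximal tubule cells, and the gene was among the genes by which the cells were first picked out, so it is a description rather than independent support. Its level in members was 1661 CPM on day 2, 1997 on day 7 and 1118 after reversal, against 227, 326 and 154 CPM in the reference. Tubule-rich members held 1786, 2267 and 1364 CPM and their reference 704, 936 and 228 CPM. Members were higher in each of the 3 libraries in both comparisons. The fitted log2 fold change was 2.90 (SE 0.26, edgeR adjusted p = 8.56e-05) by the rule as given and 1.64 (SE 0.20, adjusted p = 0.0181) in tubule-rich cells. At 1000 UMIs per cell, Slc13a1 was detected in 71.5%, 71.9% and 70.0% of tubule-rich members, against 49.1%, 48.6% and 18.3% of their reference.

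Sox9, a transcription factor switched on in repairing tubule cells, was low in level but higher in members in both comparisons. It stood at 48.7 CPM on day 2, 132 on day 7 and 68.6 after reversal in members. In tubule-rich members it was at 53.6, 138 and 26.8 CPM, the last from 2 UMIs, and in their reference at 6.19, 22.7 and 3.65 CPM. The lowest of these member values lies close to the highest of the reference, though members were higher within each library. The fitted log2 fold change was 2.25 (SE 0.33, edgeR adjusted p = 0.00233) by the rule as given and 2.78 (SE 0.37, adjusted p = 0.0196) in tubule-rich cells. Ugt2b37, a glucuronosyltransferase gene, stood at 215, 336 and 870 CPM in tubule-rich members against 31.0, 147 and 183 CPM in their reference. Its log2 fold change was 2.89 (SE 0.32, adjusted p = 3.02e-04) by the rule as given and 1.93 (SE 0.25, adjusted p = 0.0181) in tubule-rich cells.

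Spp1 and Plac8 passed the test only among tubule-rich cells. Spp1 encodes osteopontin, a secreted phosphoprotein of injured tubule, and was the most abundant of the genes described here. Its level in members was 42964, 26038 and 25937 CPM, against 35497, 14717 and 5972 CPM in the reference. In tubule-rich members it was 39712, 24392 and 23932 CPM, and in their reference 15429, 7616 and 2920 CPM. The log2 fold change was 1.19 (SE 0.37, edgeR adjusted p = 0.0824) by the rule as given and 1.96 (SE 0.27, adjusted p = 0.0225) in tubule-rich cells. Plac8, picked out after its values were seen, stood at 165, 440 and 508 CPM in tubule-rich members and 68.1, 109 and 64.4 CPM in their reference, with a log2 fold change of 2.04 (SE 0.26, adjusted p = 0.0181). By the rule as given it was 0.84 (SE 0.31, adjusted p = 0.142), and the day 2 reference stood at 213 CPM, above the 172 CPM of members. Among tubule-rich cells, Plac8 at 1.71 and Ugt2b37 at 1.89 were not called without the reversed library, Spp1 at 2.25 was not called without the day 2 library, Sox9 could not be tested without day 2, and Slc13a1 was called without each library in turn.

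**Figure D2:**
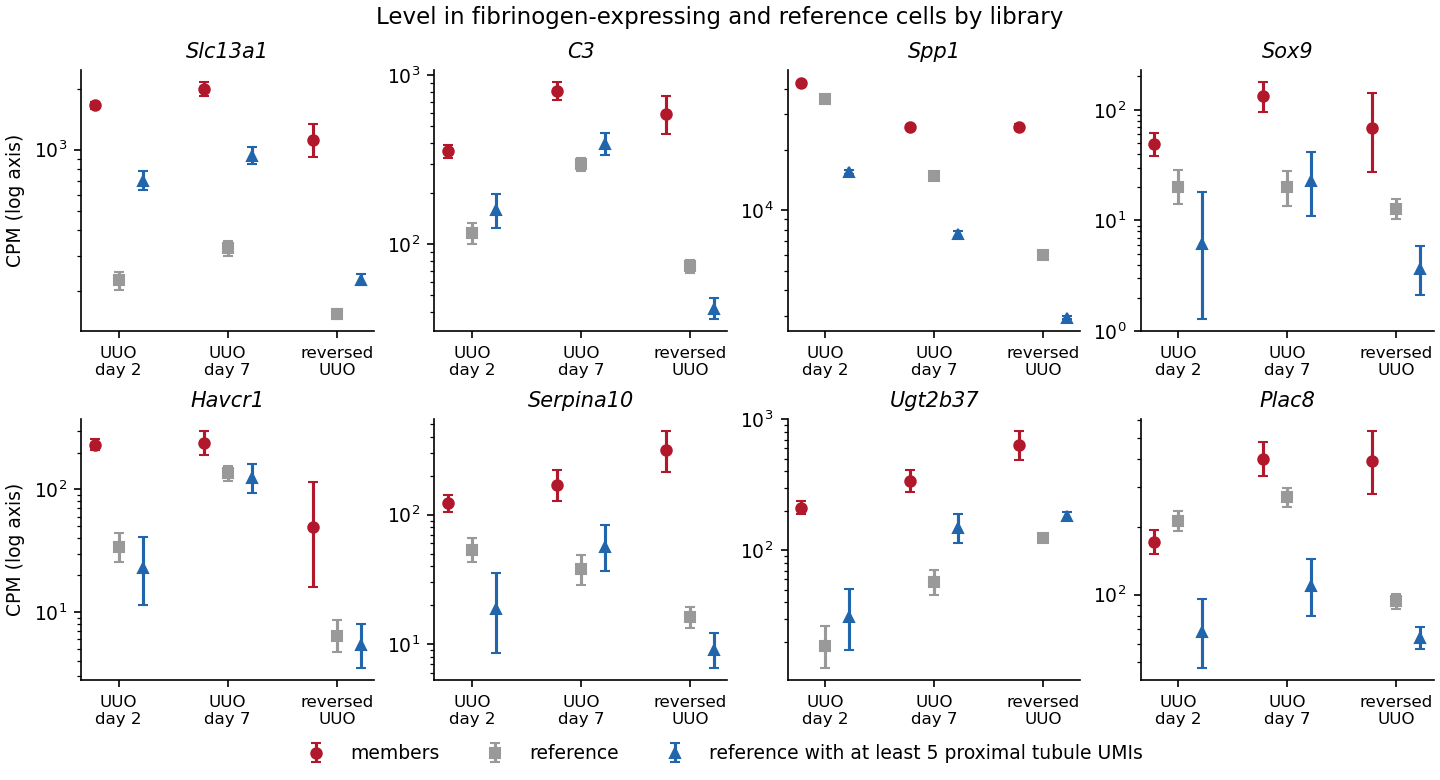
CPM on a log axis of 8 genes in the summed cells of the day 2, day 7 and reversed libraries, for members, for the reference by the rule as given and for the tubule-rich reference, with exact Poisson intervals of counting error. Members lie above the tubule-rich reference for all 8 genes in each library. Values run from 1661 against 704 CPM for Slc13a1 on day 2 to 392 against 64.4 CPM for Plac8 after reversal. Members here are all members by the rule as given, so these classes differ in the proximal tubule term, and no fit used this pair.

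Complement component C3, the central complement protein and itself an acute-phase protein of liver, was higher in members by the rule as given. Members held 356 CPM on day 2, 808 on day 7 and 588 after reversal, against 117, 298 and 74.2 CPM in the reference. Tubule-rich members held 362, 891 and 736 CPM and their reference 159, 394 and 41.6 CPM. Members were higher within each library, although the day 7 tubule-rich reference, at 394 CPM, lay above the day 2 members. The log2 fold change was 2.11 (SE 0.27, edgeR adjusted p = 8.97e-04) by the rule as given and 1.98 (SE 0.42, adjusted p = 0.222) in tubule-rich cells, where it did not pass. C3 was detected in 126 of 212 members on day 2 (59.4%, interval 52.5 to 66.1%), 21 of 38 on day 7 (55.3%) and 7 of 12 after reversal. The share was 61.5%, 56.2% and 6 of 10 in tubule-rich members, against 32.1%, 31.9% and 6.60% of their reference. At 1000 UMIs per cell it was seen in 23.5%, 31.2% and, after reversal, 5 of 10 tubule-rich members, and in 15.2%, 15.3% and 1.74% of their reference. C3, like Slc13a1, was known to mark these cells before the test.

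The liver-type acute-phase genes, C3 counted among them, were mixed. Of 26 listed, 10 could be tested by the rule as given: 5 rose (C3, Cfb, C4b, Lrg1 and Serpina10) and Fn1 fell, with a median log2 fold change of 1.07 against -0.04 over all genes tested, of which 1.64% rose and 3.81% fell. In tubule-rich cells 7 could be tested and none was called, with a median of 1.34 against -0.01 over all genes. Serpina10, which encodes an inhibitor of coagulation factor X, stood at 114, 186 and 361 CPM in tubule-rich members and 18.6, 56.7 and 9.01 CPM in their reference. Its log2 fold change was 2.57 (SE 0.38, edgeR adjusted p = 0.00243) by the rule as given and 3.22 (SE 0.52, adjusted p = 0.0690) in tubule-rich cells. Lrg1, a secreted glycoprotein gene, stood at 46.5, 97.0 and 40.1 CPM in tubule-rich members against 24.8, 11.3 and 6.44 CPM in their reference, with adjusted p = 0.00136 and 0.273 in the 2 comparisons. Fibronectin (Fn1) was at 9.61, 9.22 and 9.81 CPM in members against 41.1, 125 and 72.2 CPM in the reference, a log2 fold change of -2.44 (adjusted p = 0.00408). Fn1 is also a fibroblast gene, the fibroblast sum moved with it, and it could not be tested among tubule-rich cells.

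Levels differed widely within the acute-phase list. Ceruloplasmin (Cp), a copper-binding plasma protein, stood at 137, 295 and 431 CPM in members and 287, 260 and 147 CPM in the reference. Serum amyloid A1 (Saa1) gave 25.4, 6.14 and 0 CPM in members against 2.38, 0 and 0 CPM in the reference, too few UMIs to test. Haptoglobin (Hp) was at 2.06, 0 and 0 CPM in members and at 19.1, 32.7 and 6.44 CPM in the reference. Lcn2, a kidney injury marker with acute-phase behaviour, stood at 220, 399 and 500 CPM in members and 1233, 504 and 184 CPM in the reference. It had a log2 fold change of -0.39 (edgeR adjusted p = 0.745) by the rule as given and -0.03 (adjusted p = 1.00) in tubule-rich cells.

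Of 16 complement genes, 12 were tested by the rule as given. This list shares C3, Cfb and C4b with the acute-phase list, so the 2 counts are not separate. C3, Cfb, C4b and Cfi rose and 2 genes fell, where 1.64% of all genes tested rose and 3.81% fell. Serping1, which encodes the C1 inhibitor, was among the latter at a log2 fold change of -3.68; it is also a fibroblast-expressed gene, and the fibroblast sum moved with it. Cfb, factor B of the alternative pathway, stood at 119, 120 and 118 CPM in members, against 31.6, 52.6 and 40.2 CPM in the reference, and at 121, 145 and 147 CPM in tubule-rich members against 92.9, 102 and 58.6 CPM in their reference. Its log2 fold change was 1.72 (SE 0.28, edgeR adjusted p = 0.00397) and 0.60 (SE 0.22, adjusted p = 0.564) in tubule-rich cells. Cfi, the protease that cleaves C3b, had 1.86 (adjusted p = 0.00275) and 1.23 (adjusted p = 0.308). None of the 5 complement genes tested among tubule-rich cells was called. Without the day 2 library Cfb at 1.36 and C4b at 1.46 were not called by the rule as given, nor was C4b at 1.40 without day 7.

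Of 14 genes of interleukin-6 family signalling tested by the rule as given, 0 rose and 1 fell, Pim1 at -1.74, and the median was 0.01. With 1.64% of all genes higher and 3.81% lower, this count is near the background. Among tubule-rich cells 0 of 9 were called, 7 were positive and the median was 0.32. Pim1 was not called without day 2, at -1.21. Stat3 stood at 57.7, 92.2 and 78.4 CPM in members and 90.0, 105 and 61.2 CPM in the reference, a log2 fold change of -0.08 (SE 0.25, edgeR adjusted p = 0.917), and of 0.23 (SE 0.30, adjusted p = 0.923) in tubule-rich cells. Its feedback inhibitor Socs3 had -0.48 (adjusted p = 0.518) by the rule as given, with the opposite sign among tubule-rich cells where it could be tested, at 1.65 without the reversed and 1.46 without the day 7 library, and the oncostatin M receptor gene Osmr 0.63 (adjusted p = 0.486). Cebpb, the C/EBP factor of the acute phase, stood at 214, 197 and 108 CPM in members against 240, 220 and 99.6 CPM in the reference. Among 10 liver-type transcription factors none was called in either comparison, and Hnf4a had 1.00 (adjusted p = 0.236) by the rule as given and -0.38 (adjusted p = 0.797) in tubule-rich cells.

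**Figure D3:**
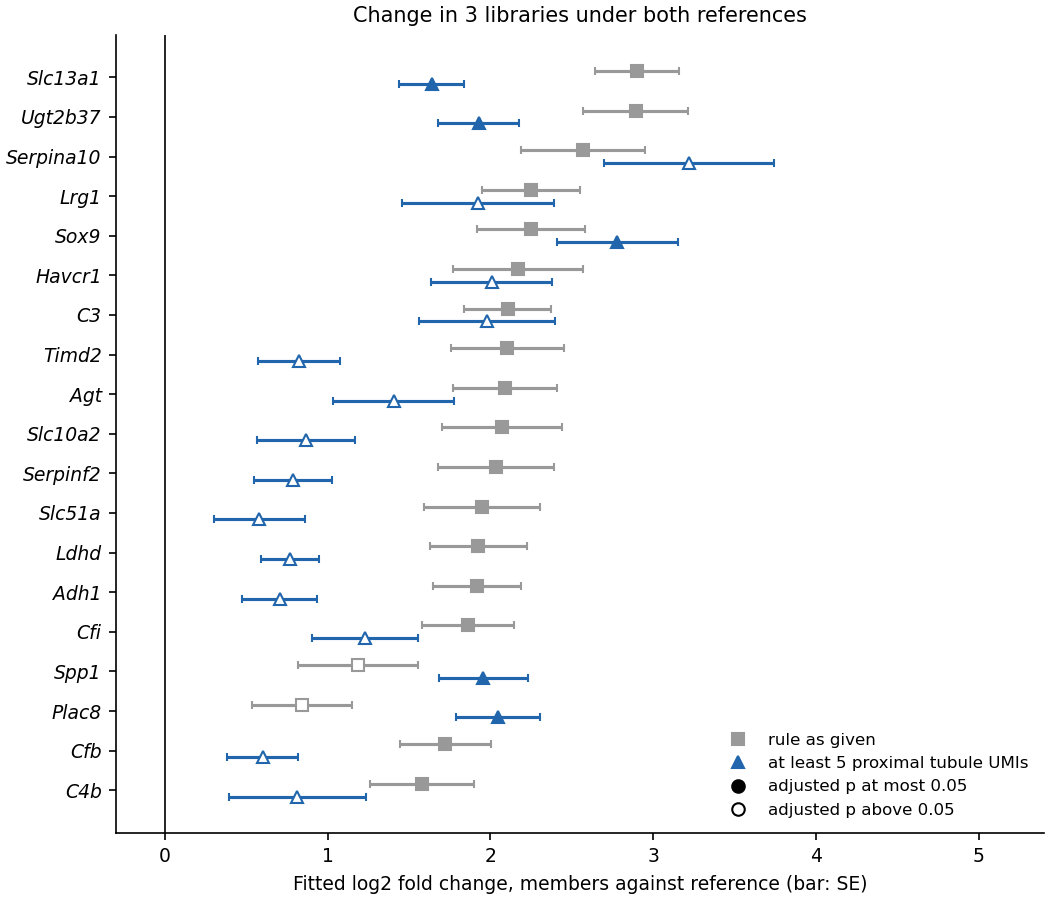
Fitted log2 fold change of members against reference with SE for the named increases and for Cfb, C4b, Spp1 and Plac8, by the rule as given and among tubule-rich cells; filled marks have adjusted p at most 0.05. Slc13a1, Ugt2b37 and Sox9 are filled in both comparisons, while C3 at 2.11 and 1.98 is filled by the rule as given alone.

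Of 15 clotting genes tested, Tfpi2 and Serpinf2 rose and Plat, Serpine2, Anxa2 and F2r fell by the rule as given, where 5 were positive and the median was -0.81. Among tubule-rich cells 0 of 6 were called, all 6 were positive and the median was 0.39. Anxa2 went from -1.46 to 0.40 between the comparisons. The fibroblast and mural, intercalated and macrophage sums given above moved with these decreases and with those of the fibrinogen receptors, after reversal without the macrophage sum, and their part was not tested. Tfpi2, an inhibitor of serine proteases of the clotting pathway, stood at 36.4, 46.1 and 29.4 CPM against 11.9, 11.5 and 23.2 CPM in the reference, a log2 fold change of 1.65 (SE 0.39, edgeR adjusted p = 0.0280), and 0.37 (adjusted p = 0.871) in tubule-rich cells. Tfpi2 was not called without day 2, at 1.38, or without day 7, at 1.35. Serpinf2, the gene of the plasmin inhibitor alpha-2-antiplasmin, had 2.03 (adjusted p = 0.00588) and 0.78 (adjusted p = 0.465). Tissue factor (F3), which starts clotting, had -0.22 (adjusted p = 0.819) and 0.34 (adjusted p = 0.907). Of 11 receptors and partners of fibrinogen, 0 rose and Fn1, Itgb5 and Thbs1 fell by the rule as given, with 0 of 7 called among tubule-rich cells. Itgb5 was not called without day 2, at -1.26, or without day 7, at -1.52. Icam1, a cell surface ligand of fibrinogen, had 0.44 (adjusted p = 0.482) and 0.71 (adjusted p = 0.747). None of 24 genes of the secretory pathway, through which fibrinogen is folded and exported, was called in either comparison, a count that the shares over all genes (1.64% higher and 3.81% lower by the rule as given) do not set apart. The median was 0.12 by the rule as given and 0.11 among tubule-rich cells.

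Among 33 tubule injury genes the comparison by the rule as given called 2 higher, Havcr1 and Sox9, and 14 lower, with a median log2 fold change of -1.28 against -0.04 over all genes, of which 1.64% were higher and 3.81% lower. The fibroblast and mural sum was also lower in members, at 2.75, 58.4 and 9.81 CPM against 87.6, 3258 and 571 CPM in the reference. So was the intercalated cell sum, at 163, 396 and 58.8 against 1815, 725 and 777 CPM, the thick ascending limb sum on day 2, at 266 against 1043 CPM, and the macrophage sum on day 2 and day 7, at 1285 and 5674 against 3141 and 9863 CPM. The part of these cell types in the decreases was not tested. Among tubule-rich cells 23 were tested, of which Sox9 and Spp1 were higher and 0 lower, with a median of 0.19; over all genes 0.104% were higher and 0% lower there. Vim is 1 of the 14: at 16.5, 36.9 and 29.4 CPM in members against 157, 227 and 207 CPM in the reference, it had -2.74 (edgeR adjusted p = 1.96e-04) by the rule as given and -0.23 (adjusted p = 0.959) in tubule-rich cells. Havcr1, the kidney injury molecule, stood at 232, 240 and 49.0 CPM in members, against 34.0, 136 and 6.44 CPM in the reference. Tubule-rich members held 194, 254 and 53.5 CPM and their reference 22.7, 125 and 5.36 CPM. Its log2 fold change was 2.17 (SE 0.40, adjusted p = 0.00787; without day 2 1.46 and not called) and 2.01 (SE 0.37, adjusted p = 0.132). Havcr1 or the injury keratin Krt20 was detected in 82 of 212 members on day 2 (38.7%, interval 32.1 to 45.6%), in 52.6% (35.8 to 69.0%) of the 38 on day 7 and in 3 of the 12 in the reversed library. In tubule-rich members the share was 35.2%, 56.2% and 2 of 10, against 5.36%, 22.2% and 0.926% of their reference. A cell with 0 UMIs of both is not shown to lack them at this depth. At 1000 UMIs per cell Havcr1 was seen in 10.1%, 21.9% and 0% of tubule-rich members and in 0.893%, 1.39% and 0.116% of their reference.

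Transport and metabolism genes of the proximal tubule differed between the 2 comparisons. Over all genes tested 46.8% were positive by the rule as given and 49.3% among tubule-rich cells, and 1.64% and 0.104% were called higher. By the rule as given 24 of 25 transport genes had a positive fold change, median 1.09, and Slc13a1, the amino acid transporter Slc7a9 and the anion transporter Slc17a1 were called. Slc7a9 at 1.32 and Slc17a1 at 0.82 were not called without day 2, nor was Slc17a1 at 1.38 without day 7. Among tubule-rich cells 8 of 24 were positive, median -0.10, and Slc13a1 alone was called, with Slc7a9 at 0.42 (edgeR adjusted p = 0.707) and Slc17a1 at 0.12 (adjusted p = 0.958). Of 29 metabolic genes 27 were positive by the rule as given, median 0.74, with Cyp2e1 called, and 4 of 27 were positive among tubule-rich cells, median -0.40, with 0 called. Ass1, an enzyme of arginine synthesis, stood at 602, 474 and 1084 CPM in tubule-rich members against 1063, 666 and 1617 CPM in their reference, a log2 fold change of -0.70 (SE 0.16, adjusted p = 0.232). Acaa2, a thiolase of fatty acid oxidation, had -0.99 (SE 0.22, adjusted p = 0.222). Tubule-rich members were lower than their reference for both in 3 of 3 libraries, without passing the adjusted test.

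**Figure D4:**
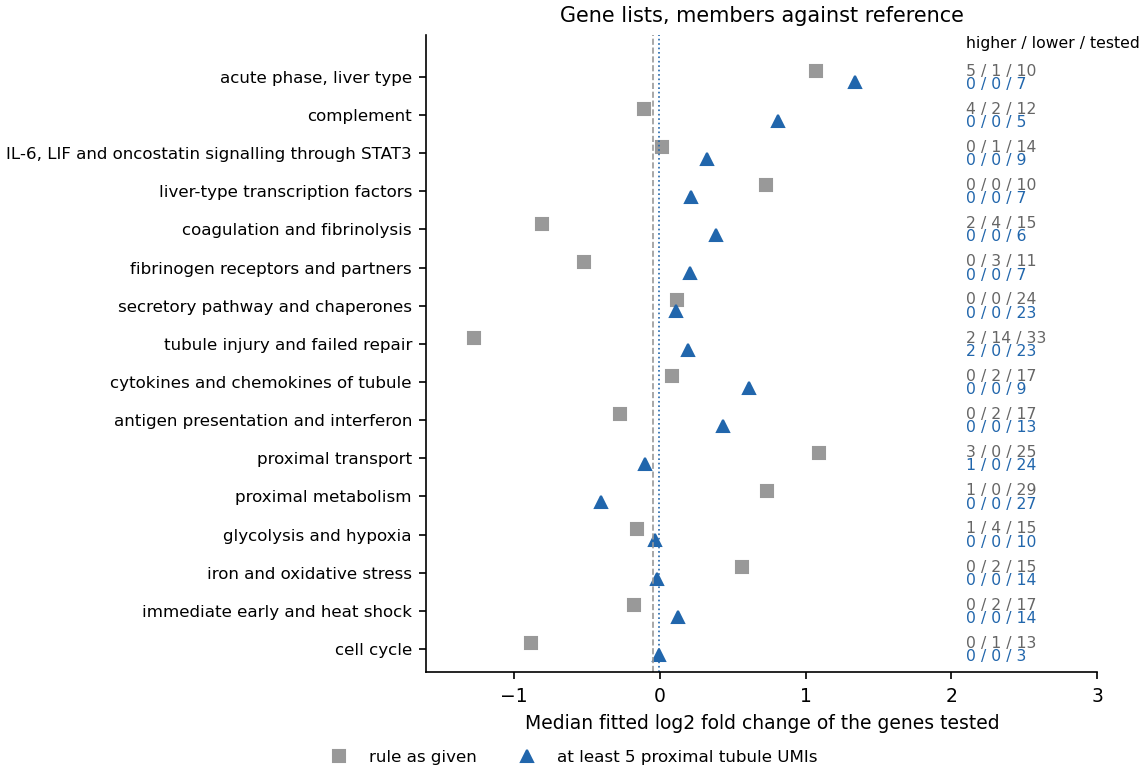
Median fitted log2 fold change of 16 gene lists, by the rule as given (squares) and among tubule-rich cells (triangles), with counts of genes called higher, called lower and tested at the right and dashed and dotted lines at the median of all genes (-0.04 and -0.01). Proximal transport and metabolism lie at 1.09 and 0.74 by the rule as given and at -0.10 and -0.40 among tubule-rich cells.

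The remaining named increases by the rule as given were Agt, Timd2, Slc10a2, Slc51a, Ldhd and Adh1, and none was called among tubule-rich cells. Agt encodes angiotensinogen, another secreted protein best known from liver. It stood at 63.8, 64.5 and 68.6 CPM in members, against 25.6, 12.8 and 11.5 CPM in the reference, and at 68.6, 74.6 and 80.3 CPM in tubule-rich members against 39.2, 24.9 and 11.8 CPM in their reference. Its log2 fold change was 2.09 (edgeR adjusted p = 0.00289) and 1.41 (adjusted p = 0.308). The bile acid transporter genes Slc10a2 and Slc51a, whose proteins take bile acids up and pass them on, had 2.07 and 1.95 by the rule as given and 0.87 and 0.58 in tubule-rich cells.

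The 15 largest named decreases were Col1a1, Tagln, Cxcl14, Dcn, Col3a1, Col1a2, Rgs5, Fstl1, Ccl2, Acta2, Myl9, Serpine2, Cald1, Tpm2 and Rasl11a, with log2 fold changes from -7.58 to -3.84. Most of these are collagen, matrix and contractile genes of fibroblasts and mural cells. Col3a1 was at 32.8, 1312 and 121 CPM in the reference and at 1.37, 27.6 and 0 CPM in members, and in the tubule-rich reference it fell to 0, 38.5 and 46.8 CPM. Col1a1 gave 0, 0 and 1 UMI in members. The fibroblast sums above moved with these genes, and their part in the decreases was not tested. None of the 15 had enough UMIs to be tested among tubule-rich cells.

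Levels were also followed along the fibrinogen count itself in day 2 cells with at least 5 proximal tubule UMIs. The cells with 0, 1, 2, 3 to 4, 5 to 6, 7 to 9, 10 to 19 and 20 or more fibrinogen UMIs numbered 112, 75, 66, 78, 51, 53, 45 and 30, and their median depth went from 3562.5 to 8301 UMIs. Slc13a1 stood at 704, 637, 959, 853, 1171, 1361, 2278 and 2393 CPM over these bins. Spp1 went from 15429 CPM at 0 to 48311 and 52229 CPM in the top 2 bins. Havcr1 was at 22.7 CPM at 0, 123 at 3 to 4, 67.0 at 5 to 6, 223 at 10 to 19 and 412 CPM at 20 or more, and Sox9 at 6.19 CPM at 0 and 79.7 CPM at 20 or more. C3 stood between 306 and 318 CPM in the bins from 3 to 19 and at 533 CPM at 20 or more. Ass1 ran the other way, from 1063 CPM at 0 to 457 CPM at 20 or more. Just outside the threshold, at 3 to 4 UMIs, Slc13a1, C3 and Ass1 stood at 853, 312 and 659 CPM, and just inside it, at 5 to 6 UMIs, at 1171, 306 and 692 CPM. Bins share 1 library and differ in depth, and no test was made across them.

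**Figure D5:**
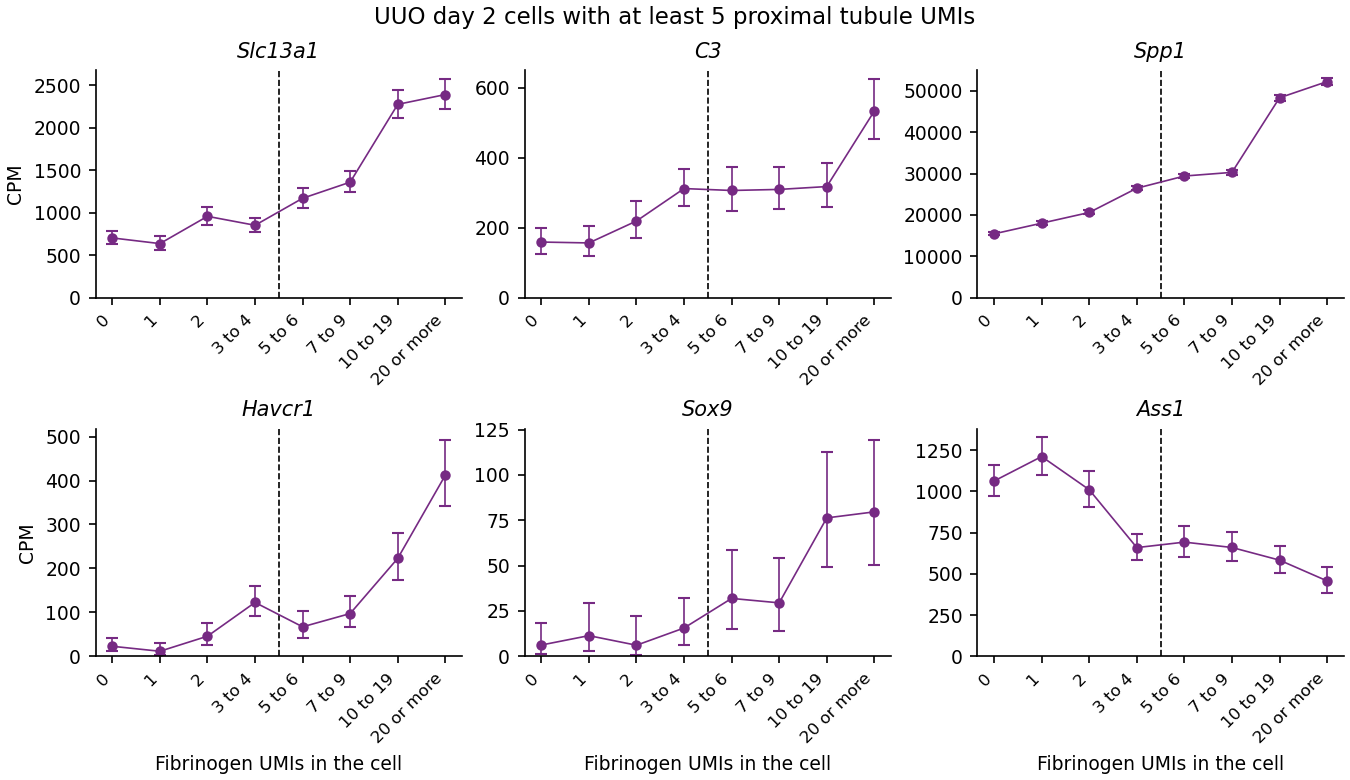
CPM of 6 genes in day 2 cells with at least 5 proximal tubule UMIs, summed within bins of fibrinogen UMIs per cell, with exact Poisson intervals; the dashed line marks the threshold of 5 UMIs for members. Slc13a1 goes from 704 to 2393 CPM and Ass1 from 1063 to 457 CPM between the lowest and the highest bin.

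On day 7 the same bins hold few cells, 72 at 0 and 8, 4, 8 and 12 in the 4 bins of members. Slc13a1 was at 936 CPM at 0 and 2834 CPM at 20 or more, and Spp1 at 7616 and 34882 CPM. C3 on day 7 was highest in the 4 cells with 7 to 9 fibrinogen UMIs, at 2226 CPM, and at 655 CPM in the 12 cells with 20 or more, so that it did not follow the fibrinogen count there.

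Members of the 3 libraries also differed from each other. These are differences between summed cells of 1 library each, without a test, counted where the CPM differed at least 2-fold and the 95% counting interval of the log2 ratio left out 0. On day 7 against day 2, 436 of 5460 genes were higher (7.99%) and 112 lower (2.05%), a split that TMM scaling turned to 205 higher and 276 lower. After reversal against day 2, 429 of 4895 were higher (8.76%) and 69 lower (1.41%), or 123 and 323 with TMM scaling. The median gene moved by 0.14 and 0.22 on the log2 scale, and TMM scaling lowered the log2 ratios by 0.30 and 0.55. No ratio of a gene named below for day 7 or for reversal changes sign by that shift.

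Antigen presentation and interferon genes held the most differences of the 16 lists on day 7. Of 15 with enough UMIs, 9 were higher (Bst2, Cd74, H2-Aa, H2-Ab1, H2-D1, H2-Eb1, H2-K1, Ifitm3 and Psmb8) and Ifit1 lower, and with TMM scaling 9 were higher and 2 lower. For this and the following day 7 lists, 7.99% of all 5460 genes were higher and 2.05% lower, or 205 and 276 genes with TMM scaling. H2-K1, a class I gene, stood at 547 CPM on day 7 and 181 CPM on day 2 in members, a log2 ratio of 1.59 (counting interval 1.31 to 1.87). Cd74, the class II invariant chain, stood at 2860 against 829 CPM in members and at 2718 against 624 CPM in the tubule-rich reference. Macrophage markers in members went with these genes, at 5674 CPM on day 7 and 1285 CPM on day 2, and their part in the result was not tested. C1qc, a macrophage complement gene, was at 261 against 21.3 CPM in members. Of 8 acute-phase genes C3 (log2 ratio 1.18) and Cp (1.10) were higher and Saa1 lower on day 7, and with TMM scaling C3 and Cp no longer reached 2-fold. Of 26 tubule injury genes 7 were higher and 0 lower, or 6 and 1 with TMM scaling, among them the adhesion gene Vcam1 at 135 against 23.3 CPM and Sox9 at 132 against 48.7 CPM. The macrophage sum moved with these genes too. From day 2 to day 7 fibroblast and mural markers in members went from 2.75 to 58.4 CPM and endothelial markers (6 genes) from 27.5 to 64.5 CPM. Intercalated markers went from 163 to 396 and thick ascending limb markers from 266 to 488 CPM, while principal cell markers went from 111 to 67.6 CPM. In tubule-rich members the intercalated and limb sums went the other way, from 93.8 to 26.1 and from 229 to 63.4 CPM. The fibroblast and mural sum still rose there, from 3.15 to 55.9 CPM, as did the endothelial sum, from 23.6 to 70.9 CPM. The part of these cell types was not tested. Of 16 immediate early and heat shock genes 6 were higher, 5 of them with TMM scaling, with Jun at 501 against 201 CPM.

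Members of the reversed library had lower levels of some proximal tubule genes than members of day 2. The sum of the 13 proximal tubule markers was not lower without TMM scaling. It was 9071 CPM in reversed and 8154 CPM in day 2 members, and 11063 against 8385 CPM in tubule-rich members. The 12 reversed members held 101977 UMIs and the 10 tubule-rich ones 74755 UMIs. Of 22 transport genes 5 were lower than on day 2 (Aqp1, Slc13a3, Slc3a1, Slc5a2 and Slc7a7) and 0 higher, and of 27 metabolic genes 4 were lower (Acsm1, Cyp4b1, Nat8 and Pck1). Over all 4895 genes 8.76% were higher and 1.41% lower. With TMM scaling the lower genes of the 2 lists numbered 11 and 7, where 123 of all genes were higher and 323 lower. Pck1, the enzyme that commits to gluconeogenesis, stood at 98.1 against 468 CPM. Of 23 tubule injury genes 11 were higher and 2 lower, or 7 and 5 with TMM scaling, with Dcdc2a at 353 against 19.2 CPM and Sox4 at 245 against 39.1 CPM. Havcr1, on the lower side, stood at 49.0 against 232 CPM, a log2 ratio of -2.22 (-3.79 to -0.999). In members the macrophage sum was also higher, at 2706 against 1285 CPM, as was the thick ascending limb sum, at 2295 against 266 CPM. The intercalated cell sum was lower, at 58.8 against 163 CPM. The part of these cell types was not tested. Gdf15, a stress-induced cytokine, gave 0 UMIs in the reversed members and 63.2 CPM on day 2. The day 2 level lay 2.15-fold above a floor of 3 counts over the reversed group (29.4 CPM). Cxcl1 likewise gave 0 UMIs, with a day 2 level 1.70-fold above that floor. The counting intervals of the 2 log2 ratios reached up to -0.758 and -0.423. Among the largest increases Tmem52b, Slc12a3 and Ptgds were at 392, 167 and 265 CPM against 15.8, 15.1 and 20.6 CPM; Slc12a3 is the salt transporter of the distal convoluted tubule. In the 10 tubule-rich members of the reversed library Tmem52b was at 0 and Slc12a3 at 2 UMIs, of 40 and 17 in all 12 members, so that most of these UMIs came from the 2 other cells, while Ptgds kept 26 of 27. The 3 distal convoluted tubule markers likewise held 20 UMIs in the 12 members and 4 in the 10, and the thick ascending limb markers fell in the same way, as given above. Dcdc2a, with 36 UMIs in the 12 members, kept 15 in the 10.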

How the data were processed

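The deposited droplet files hold whole UMI counts per gene and cell. Per the submitters' processing notes the authors used Cell Ranger and STAR with GRCm38/mm10; versions, filters and the annotation are not given in the sources used here. The deposited Smart-seq2 table holds read counts per well. Members and gene lists were chosen with earlier results of these data known. For each library the counts of members and of reference cells were summed, and the day 2, day 7 and reversed sums (6 in all) were fitted with edgeR 4.0.16 (R 4.3.3; filterByExpr, TMM, quasi-likelihood test) with the library as a block, since both classes of a pair come from the same library. The 10 genes of the rule were not tested. DESeq2 1.42.0 was an alternative. Libraries needed at least 10 members. CPM ratios between libraries used a pseudocount of 1 CPM. Intervals are 95% exact binomial or Poisson, and both they and floors of 3 counts cover counting error only.

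Genes named beside the lists were the 15 largest called increases and decreases with the same sign in every library and at least 50 CPM in the higher class, and the 5 largest in each direction between libraries with at least 30 UMIs, leaving out mitochondrial, ribosomal, haemoglobin and unnamed gene models. Scrublet in scanpy 1.11.5 marked 2, 2, 3 and 12 cells as doublets in the sham, day 2, day 7 and reversed libraries, too few to be usable, so no cell was removed; an alternative removed the highest scores at 0.8% per 1000 cells, 282, 60, 162 and 109 cells, of which 0, 2, 1 and 0 were members. The other steps ran in Python 3.11.15 with scipy 1.17.1, numpy 2.4.6, matplotlib 3.10.9 and pandas 2.3.3. Promoters are from RefSeq on GRCm38.p6. 1 gene of the lists was not analysed here, and 1 other is counted but not reported here.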

Additional observations from a re-analysis of the deposited data

Results flagged for a closer look

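The Smart-seq2 library, which no comparison above uses because it mixes time points, also held fibrinogen reads. Of its 768 wells on 8 plates, 31 had at least 5 fibrinogen reads (4.04%, exact binomial interval 2.76 to 5.68%), and 148 had any. A count of 0 wells would have allowed up to 0.391%, a bound that any 4 wells pass. The 31 wells held 5 to 325 fibrinogen reads, median 10. Ptprc was read in 30 of the 31 and in 739 wells of all. In the 31, proximal tubule genes of the rule were read in 15, C3 in 19, Slc13a1 in 4 and Havcr1 in 0, and 0 of the 31 met the proximal tubule term without Ptprc, as 4 wells of all did. Reads of this assay are not single molecules.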

How the results depend on the processing

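The count of genes higher and lower by the rule as given (160 and 372) depended on many choices. It was 72 and 162 with DESeq2, 336 and 729 without a filter, 37 to 714 and 139 to 724 leaving out each library, 57 and 145 with no replicate block (no library term), 566 and 443 at 20% mitochondrial UMIs and 441 and 357 at 10 fibrinogen UMIs (both with 2 libraries left, and both with more higher than lower genes), 581 and 654 at 3 fibrinogen UMIs, 318 and 238 with reference cells drawn towards the members' depth, and 42 and 103 with cells thinned to 1000 UMIs. Among tubule-rich cells it was 5 and 0, 7 and 0 with DESeq2, 5 to 27 and 0 to 13 leaving out each library (1 lower without day 2), and 4 and 0 with reference cells drawn towards the members' depth. On day 2 too few deep reference cells were present for a full match: the medians were 5648 and 4782 UMIs by the rule as given and 6111 and 3562.5 among tubule-rich cells, so results called depth-matched here are matched on day 7 and after reversal. DESeq2, the leave-one-out fits and the draw by depth among tubule-rich cells were chosen after seeing the data. Leaving out sham changes nothing, since it is not in the fit.

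The share of members among eligible cells at 20% mitochondrial UMIs was 0.583% in sham and 24.6% on day 2. With at least 5 proximal tubule UMIs it was 35.1% on day 2 and 19.6% on day 7. With 10 fibrinogen UMIs the day 2 and day 7 shares were 12.6% and 6.67%, the reversed 0.280% and the sham 0%, and with 3 it was 41.2% on day 2 and 16.4% on day 7. Thinned to 1000 UMIs the day 2 and day 7 shares were 2.48% and 0.697%, and the sham and reversed shares 0%. Between member libraries, TMM gave 205 higher and 276 lower genes for day 7 and 123 and 323 for reversal, a pseudocount of 10 CPM gave 245 higher for day 7, totals without mitochondrial genes gave 111 lower for reversal, and at least 5 proximal tubule UMIs, added after seeing the data, 270 higher for reversal.

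Among 920 values of named genes, 686 kept direction and side of the threshold, 159 kept direction but were no longer called, 30 became called and 45 changed sign; the cause was not tested. The signs that changed, as log2 fold changes, follow. Among tubule-rich cells and their alternatives Stat3 stood at 0.23, with DESeq2 0.20, without reversed 0.27, without day 7 0.40 and depth-matched 0.35. Hnf4a stood there at -0.38, with DESeq2 -0.48, leaving out a library -0.62 to -0.13 (-0.55 without day 2) and depth-matched -0.091. Anxa2 stood at 0.40, with DESeq2 0.40, leaving out a library 0.24 to 0.48 (0.44 without day 7) and depth-matched 0.21. Ass1 stood at -0.70, with DESeq2 -0.70, leaving out a library -0.86 to -0.64 and depth-matched -0.38, and by the rule as given at -0.13 thinned. F3 stood at 0.34, 0.51 without reversed and 0.55 without day 7, and by the rule as given at 0.078 with 20% mitochondrial UMIs and 0.11 depth-matched. Leaving out libraries among tubule-rich cells, Lcn2 was at 0.024 without reversed and 0.020 without day 7, Socs3 at 1.65 and 1.46, Vim at 0.37 without reversed, Cebpb at -0.073 and Slc17a1 at -0.29 without day 2. By the rule as given, Lcn2 ran from -1.18 to 0.51, Stat3 from -0.15 to 0.061 and Cebpb from -0.020 to 0.14 leaving out each library, with the changed sign without day 2. Cebpb was at -0.026 with 3 fibrinogen UMIs and -0.52 thinned, Socs3 at 0.037 with 10 fibrinogen UMIs, and Icam1 at -0.12 depth-matched. Acaa2 was at 0.23 with 20% mitochondrial UMIs and 0.082 with 3 fibrinogen UMIs. The day 2 log2 ratio of Plac8 turned to 0.035 with cells weighted equally and 1.26 with at least 5 proximal tubule UMIs.

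The comparison rests on 3 libraries of different conditions and on 12 members after reversal. Members had to reach a UMI count and had a higher median depth than the reference, and whether the rule brought this about was not tested. Low genes could not be tested among tubule-rich cells.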
